A study of Homo sapiens with 6 samples.

Results

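The genes that sense oxygen and carry its signal to transcription were examined in Caki2 cells with and without PBRM1: the HIFα subunits HIF1A, EPAS1 and HIF3A, their partners ARNT and ARNT2, the prolyl hydroxylases EGLN1, EGLN2 and EGLN3, the asparaginyl hydroxylase HIF1AN and the ubiquitin ligase subunit VHL. The 10 genes were taken by symbol from the 25369 gene rows of each sample, and 8 of them passed the filter on low values (10 or more normalized counts in 3 or more samples), as did 13303 genes in all. Caki2 is a ccRCC (clear cell renal cell carcinoma) cell line whose PBRM1 gene is mutated and which makes no PBRM1 protein. Caki2+Vector cells were transduced with an empty tet-inducible lentiviral vector and Caki2+PBRM1 cells with the vector holding full-length PBRM1, a bromodomain subunit of the PBAF chromatin remodeling complex. Both groups carried the rtTA transactivator and were kept in doxycycline at 2 µg/mL, so both shared the drug, the vector and the lack of endogenous PBRM1 protein. Poly(A) RNA of 3 biological replicates (A, B and C) per group was sequenced in cells under standard culture. Cells were drug-selected after transduction to keep stable lines, and the sources used here do not say whether the replicates came from separate transductions or clones, so differences between the lines other than PBRM1 cannot be told apart from PBRM1 itself.

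HIF is a heterodimer of an oxygen-regulated α subunit and a stable β subunit (ARNT or ARNT2). When oxygen is present, the EGLN prolyl hydroxylases (PHD enzymes) mark the α subunit, the VHL ligase recognizes the mark and ubiquitinates it, and the proteasome destroys it. HIF1AN hydroxylates an asparagine of the α subunit and blocks its binding to the coactivators EP300 and CREBBP. In most ccRCC the VHL gene is inactivated, which leaves HIFα protein in place at normal oxygen. RNA-Seq measures the transcripts of these genes, not the protein or the hydroxylation that control HIF most directly.

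PBRM1 itself, the check of the labels, had 195, 182 and 182 normalized counts in Caki2+Vector A, B and C and 2432, 2521 and 2682 in Caki2+PBRM1 A, B and C. On the log2 scale PBRM1 rose by 3.763 (SE 0.056, 95% interval 3.647 to 3.878, adjusted p = 3.33e-29 from limma with Benjamini-Hochberg adjustment). Of 8 markers of a renal carcinoma line, PAX8, PAX2, VIM, KRT8, KRT18, CDH2 and CDH6 passed the filter, while CA9 reached at most 2.83 normalized counts in Caki2+Vector and lay between 6.71 and 15.2 in Caki2+PBRM1. Summed over the 8, the level ran from 33340.2 to 34367.9 in the Caki2+Vector samples and from 34913.0 to 35740.4 in the Caki2+PBRM1 samples, most of it VIM and KRT8. The markers moved in both directions, since 4 of the 7 tested were called (limma): CDH6 (2.18-fold, adjusted p = 1.59e-18) and VIM (1.13-fold) were higher, and KRT18 (0.790) and KRT8 (0.883) were lower. Of 7 markers of other cell types, CD3E, CDH5 and ALB were at 0 in every sample, PTPRC was low (3.78 to 5.68 with the vector, 0 to 1.08 with PBRM1) and PECAM1 at most 2.67. DES (12.3 to 30.2) and CD68 (1897.6 to 2139.9) were detected in both groups, and the 7 summed to 2009.8 to 2173.9 with the vector and 1916.1 to 1967.0 with PBRM1. Each sample had 7312955 to 10835355 reads on genes. Caki2+Vector A stood apart from the other Caki2+Vector samples, with a chi-square per degree of freedom of 3.091 against B and 2.839 against C, whereas B and C gave 1.339 and the Caki2+PBRM1 pairs 1.188 to 1.221.

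The transcripts of EPAS1, EGLN3, EGLN1 and HIF1A were higher in Caki2+PBRM1, and that of ARNT2 was lower. EPAS1, which encodes HIF2α, rose 1.78-fold, EGLN3 1.47-fold, EGLN1 1.32-fold and HIF1A 1.12-fold, while ARNT2 was at 0.848 of its Caki2+Vector level. ARNT, HIF1AN and VHL did not pass the threshold, and HIF3A was too low to test. EGLN2, listed at 0 in all 6 samples and sharing exons with a readthrough gene (below), could not be tested. Thus 5 of the 8 tested genes were called, against 29.2% of all tested genes, with 4 upregulated (16.2% of all) and 1 downregulated (13.0%). Their median log2 fold change was 0.140, against -0.0036 over all tested genes, and with 8 genes these shares are a description only. In bulk RNA, a change in the number of expressing cells and one in RNA per cell cannot be told apart. The groups did not overlap for 6 of the 8, compared with 41.7% of all tested genes. Other rules called 5 of the 8 with edgeR (30.3% of all genes), 4 with DESeq2 (17.7%), 4 at an adjusted p under 0.01 (19.0%) and 5 with the replicate letter as a block (30.9%). Fold changes here are differences of mean log2(normalized count + 1) from limma, tested over all 13303 genes with Benjamini-Hochberg adjustment and an adjusted p under 0.05 as the threshold.

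**Figure D1:**
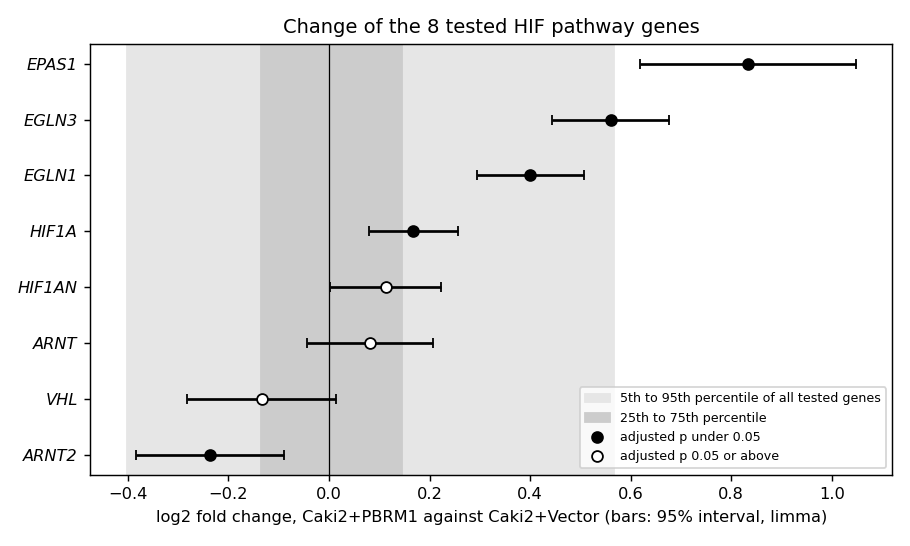
Log2 fold change (x axis, Caki2+PBRM1 against Caki2+Vector) of the 8 tested genes with 95% intervals from limma (bars, 3 samples per group). Filled points passed an adjusted p of 0.05, and the shaded bands mark the central range of all 13303 tested genes, from -0.402 to 0.566 for the 5th to 95th percentile. EPAS1 lies above that band at 0.833, and EGLN3 at 0.560 lies just inside its upper end.

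Because EPAS1, EGLN1, EGLN3 and HIF1A rose together, the first annotated promoter window of each is shown, as 250 bases before to 50 bases after the transcription start in RefSeq (GRCh38.p14), read 5′ to 3′ on the strand of the gene. HIF binds a core written ACGTG or GCGTG, and capitals mark every match to either on either strand. The EPAS1 window (chr2:46297157-46297456, plus strand) held 1 GCGTG that begins at position -117 from the start, and the EGLN1 window (chr1:231422238-231422537, minus strand) held 1 ACGTG that begins at -13. The EGLN3 window (chr14:33951025-33951324, minus strand) held neither, and the HIF1A window (chr14:61695263-61695562, plus strand) held 1 GCGTG that begins at -204.
EPAS1: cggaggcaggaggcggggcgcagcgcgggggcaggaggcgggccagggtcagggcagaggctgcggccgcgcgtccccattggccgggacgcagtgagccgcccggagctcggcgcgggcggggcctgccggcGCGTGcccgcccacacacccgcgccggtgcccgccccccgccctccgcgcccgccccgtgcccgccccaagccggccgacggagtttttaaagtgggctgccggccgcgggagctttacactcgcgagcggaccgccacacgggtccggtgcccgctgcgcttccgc
EGLN1: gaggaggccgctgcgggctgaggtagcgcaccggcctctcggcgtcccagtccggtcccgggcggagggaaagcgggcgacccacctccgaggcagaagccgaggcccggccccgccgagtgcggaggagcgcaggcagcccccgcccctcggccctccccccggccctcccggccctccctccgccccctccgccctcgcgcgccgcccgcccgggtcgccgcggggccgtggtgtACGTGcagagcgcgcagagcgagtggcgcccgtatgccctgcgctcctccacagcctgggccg
EGLN3: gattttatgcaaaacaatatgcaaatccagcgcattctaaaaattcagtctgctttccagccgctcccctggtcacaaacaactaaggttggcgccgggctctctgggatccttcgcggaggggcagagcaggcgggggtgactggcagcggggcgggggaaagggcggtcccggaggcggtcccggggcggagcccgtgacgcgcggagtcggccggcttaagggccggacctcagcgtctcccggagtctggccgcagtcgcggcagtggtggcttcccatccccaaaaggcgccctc
HIF1A: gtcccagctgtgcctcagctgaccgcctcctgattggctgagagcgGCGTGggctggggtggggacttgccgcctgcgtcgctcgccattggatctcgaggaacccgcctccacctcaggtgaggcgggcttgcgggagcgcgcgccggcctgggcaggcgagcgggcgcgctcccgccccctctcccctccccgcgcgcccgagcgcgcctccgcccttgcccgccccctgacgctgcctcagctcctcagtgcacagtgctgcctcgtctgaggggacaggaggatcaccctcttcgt
Of all 35116 promoter windows in the same table, 21.4% held ACGTG, 36.5% GCGTG and 48.4% at least 1 of them, so a match in 3 of these 4 windows is a description of the letters and not of binding. GC content was 80% in the windows of EPAS1 and EGLN1, 73% in that of HIF1A and 65% in that of EGLN3, compared with a median of 58.7% over all windows. The windows of ARNT and HIF1AN, both below the threshold, held neither core. The first window of HIF3A, which was close to absent, held 3 GCGTG. The first window of EGLN2 held 1 CACGTG, which matches ACGTG on both strands. In all, 8 of the 10 genes had a window in that table.

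Among the α subunits, EPAS1 (chr2:46520806-46613836 on GRCh37, plus strand) changed most. It encodes HIF2α, the HIFα subunit most often tied to ccRCC growth. Its normalized counts were 108, 102 and 94.7 in Caki2+Vector A, B and C and 170.1, 196 and 179.6 in Caki2+PBRM1 A, B and C. Every Caki2+PBRM1 sample lay above every Caki2+Vector sample. The mean went from 102 ± 6.63 to 182 ± 12.9 (SD, n = 3 each). EPAS1 thus rose by 0.833 on the log2 scale (SE 0.105, 95% interval 0.618 to 1.048, adjusted p = 3.33e-07 from limma), and 3.44% of tested genes had a larger change in size. EPAS1 rested on the fewest reads of the tested members, 79 to 220 per sample. At the mean of these reads, counting error alone is 8.20% of a sample's value, and it is larger for samples with fewer reads.

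HIF1A (chr14:62162231-62214977 on GRCh37, plus strand), which encodes HIF1α, changed far less. Its normalized counts were 1481, 1451 and 1427.5 in Caki2+Vector A, B and C. They were 1656, 1576 and 1666 in Caki2+PBRM1 A, B and C. The groups did not overlap, but the distance from the highest Caki2+Vector sample to the lowest Caki2+PBRM1 sample was smaller in proportion than for EPAS1. The log2 fold change was 0.168 (SE 0.044, 95% interval 0.079 to 0.257, adjusted p = 0.00393 from limma), and 42.9% of all tested genes had a larger change in size. Leaving out each replicate in turn gave 0.153 to 0.193 with a largest adjusted p of 0.0388. HIF1A shares 133 bp of exon with HIF1A-AS1 on the opposite strand (2.58% of its exon bases), and HIF1A-AS1 reached at most 3.36 normalized counts.

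The level of EPAS1 was also set against that of HIF1A in the same sample. The log2 ratio of EPAS1 to HIF1A was -3.766, -3.817 and -3.900 in Caki2+Vector A, B and C and -3.276, -3.004 and -3.206 in Caki2+PBRM1 A, B and C. The ratio was thus higher in each Caki2+PBRM1 sample than in any Caki2+Vector sample, by 0.665 on the log2 scale between the means. The exact two-sided permutation test gave p = 0.1, the smallest that 3 samples against 3 allow, and 0.133 after Benjamini-Hochberg adjustment over the 4 ratios examined. Per kilobase of exon, EPAS1 made up 4.70% ± 0.212 (SD, n = 3) of the sum of EPAS1 and HIF1A in Caki2+Vector and 7.30% ± 0.676 in Caki2+PBRM1, so HIF1A remained by far the more abundant transcript in both groups.

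HIF3A, whose splice forms include inhibitors of the other α subunits, was close to absent. It had 2, 1 and 1 reads in Caki2+Vector A, B and C and 1, 3 and 0 reads in Caki2+PBRM1 A, B and C. A count of 0 allows up to 3 reads, which is 2.52 to 3.60 normalized counts at these depths, and no sample exceeded 3 reads. No difference in HIF3A was detectable at this depth.

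**Figure D2:**
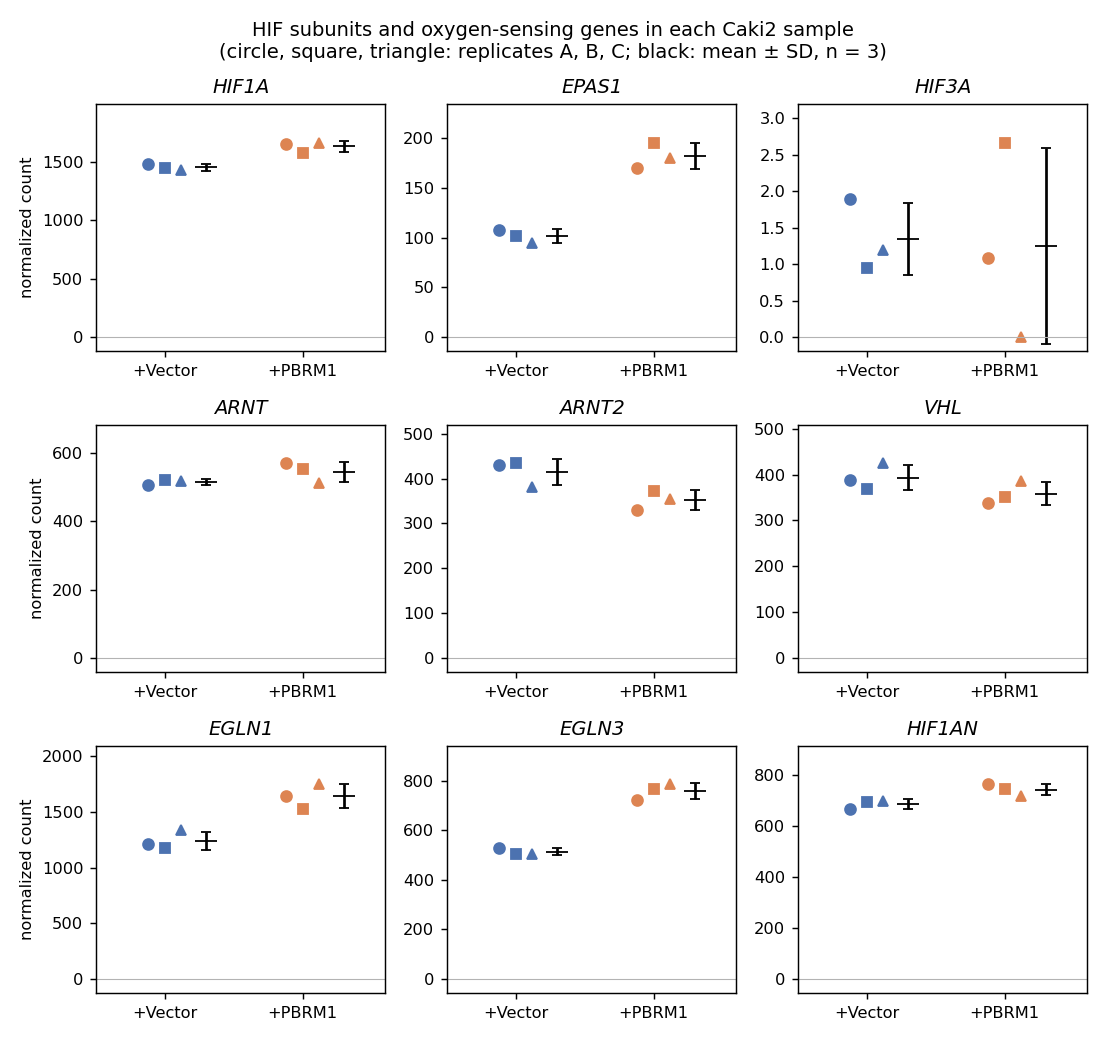
Normalized count (y axis, a separate scale for each gene) of 9 genes in every sample, with circles, squares and triangles for replicates A, B and C and black bars for the mean ± SD (n = 3). The groups are fully apart for HIF1A, EPAS1, ARNT2, EGLN1, EGLN3 and HIF1AN and overlap for HIF3A, ARNT and VHL. EGLN2 is not drawn because it is listed at 0 in all 6 samples.

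Of the β subunits, ARNT2 was lower in Caki2+PBRM1 and ARNT did not pass the threshold. ARNT (chr1:150782189-150849184 on GRCh37, minus strand), the general partner of HIFα and of the aryl hydrocarbon receptor, had 506, 522 and 518 normalized counts in Caki2+Vector A, B and C and 569.8, 554 and 513 in Caki2+PBRM1 A, B and C. Caki2+PBRM1 C lay within the Caki2+Vector range. The log2 fold change of ARNT was 0.082 (95% interval -0.043 to 0.206, or 0.971-fold to 1.15-fold, adjusted p = 0.339 from limma). Its paralog ARNT2 (chr15:80696692-80890274 on GRCh37, plus strand), best known from neurons, had 431, 434 and 381 normalized counts in Caki2+Vector A, B and C. It had 329, 372 and 354 in Caki2+PBRM1 A, B and C. Each Caki2+PBRM1 sample lay below each Caki2+Vector sample, with Caki2+Vector C and Caki2+PBRM1 B close together. The log2 fold change of ARNT2 was -0.237 (SE 0.072, 95% interval -0.384 to -0.090, adjusted p = 0.0130 from limma).

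ARNT2 had the largest adjusted p of the 5 called genes. Without Caki2+PBRM1 A it was -0.190 with an adjusted p of 0.0982 from limma, and without Caki2+Vector B -0.204 with an adjusted p of 0.0650. DESeq2 gave -0.242 with an adjusted p of 0.0641. The direction was the same in each of these fits. The log2 ratio of ARNT2 to ARNT was -0.312 ± 0.113 (SD, n = 3) in Caki2+Vector and -0.631 ± 0.138 in Caki2+PBRM1. The groups did not overlap, with an exact two-sided permutation p of 0.1 (0.133 adjusted over the 4 ratios). Per kilobase, ARNT2 made up 40.2% ± 1.88 of the pair in Caki2+Vector and 35.0% ± 2.17 in Caki2+PBRM1.

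Of the prolyl hydroxylases, both that could be measured rose. EGLN1 (chr1:231499497-231558033 on GRCh37, minus strand) encodes PHD2, the enzyme that sets HIFα levels in most cells at normal oxygen. Its normalized counts were 1215, 1181 and 1334 in Caki2+Vector A, B and C and 1645, 1531 and 1748 in Caki2+PBRM1 A, B and C. The Caki2+PBRM1 samples all lay above the Caki2+Vector samples. EGLN1 rose by 0.40 on the log2 scale (SE 0.052, 95% interval 0.294 to 0.507, adjusted p = 9.22e-07 from limma), and 13.7% of tested genes changed more in size.

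EGLN3 (chr14:34393433-34931980 on GRCh37, minus strand) encodes PHD3, whose gene is itself a target of HIF. Its normalized counts were 529, 505 and 506 in Caki2+Vector A, B and C. They were 724, 764 and 785 in Caki2+PBRM1 A, B and C. The groups lay well apart, with means of 513 ± 13.6 and 758 ± 31.2 (SD, n = 3), and EGLN3 had the lowest adjusted p of the 8 tested genes. EGLN3 rose by 0.560 on the log2 scale (SE 0.057, 95% interval 0.443 to 0.676, adjusted p = 5.92e-09 from limma), and 7.40% of tested genes changed more in size.

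The intervals of EGLN1 and EGLN3 overlapped between 0.443 and 0.507, and their ratio was compared directly. The log2 ratio of EGLN3 to EGLN1 was -1.197, -1.223 and -1.397 in Caki2+Vector A, B and C. It was -1.184, -1.001 and -1.155 in Caki2+PBRM1 A, B and C. The groups were apart by only the distance from -1.197 to -1.184, and the difference of means was 0.159 (exact two-sided permutation p = 0.1, 0.133 adjusted over the 4 ratios). Processed pseudogenes of EGLN1, EGLN3 and HIF1A are annotated (EGLN1P1, EGLN3P1 and HIF1AP1), and none of the 3 is a row of the count tables, so reads shared with them could have been lost or added and these 3 levels carry that uncertainty.

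EGLN2, which encodes PHD1, was listed at 0 in all 6 samples, as were RAB4B and the readthrough gene RAB4B-EGLN2. EGLN2 (chr19:41304901-41314339 on GRCh37, plus strand) shares 2012 bp of exon with RAB4B-EGLN2 on the same strand. This is 95.8% of the exon bases of its canonical transcript and 30.6% of all its exon bases. Of 121 readthrough rows whose partner genes are both listed, 101 (83.5%) were at 0 in all 6 samples. The downstream partner, the place EGLN2 has, was at 0 for 34 (28.1%), and all 3 genes were at 0 in 11 of the 121. Of all 25369 rows, expressed or not, 23.6% were at 0. These shares count exact 0 only. Downstream partners with few counts, such as CHMP3 (at most 2.84), are not in them, while others, such as RBM4, reached 226.7. No ratio or fold change of EGLN2 is given. Whether reads of shared exons were left uncounted was not tested.

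HIF1AN (chr10:102288829-102319755 on GRCh37, plus strand), also called FIH, had 666, 696 and 701 normalized counts in Caki2+Vector A, B and C. It had 765, 748 and 719 in Caki2+PBRM1 A, B and C. The groups did not overlap, although only narrowly between Caki2+Vector C and Caki2+PBRM1 C. The log2 fold change was 0.113 (95% interval 0.003 to 0.223), and its unadjusted p of 0.0450 became 0.119 after adjustment over all genes (limma), so it did not pass the threshold. HIF1AN shares 325 bp of exon (2.34% of its exon bases, but 0 bp of its canonical transcript) with NDUFB8 on the opposite strand. NDUFB8 reached 601.8 normalized counts, and the counting is not stated to use strand.

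VHL (chr3:10183462-10195351 on GRCh37, plus strand) was expressed in both groups. Its normalized counts were 387, 369 and 424 in Caki2+Vector A, B and C and 339, 350.2 and 387 in Caki2+PBRM1 A, B and C. Caki2+PBRM1 C reached the level of Caki2+Vector A, so the groups overlapped. The log2 fold change was -0.134 (95% interval -0.282 to 0.015, adjusted p = 0.177 from limma). It passed the threshold in 1 of 16 fits, with log2(CPM + 1) in place of the authors' scaling (-0.184, adjusted p = 0.0464), a scaling that moved the median of all genes to -0.0541. The log2 ratio of HIF1AN to VHL was 0.806 ± 0.097 (SD, n = 3) in Caki2+Vector and 1.052 ± 0.144 in Caki2+PBRM1, with overlapping groups and an exact two-sided permutation p of 0.200.

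**Figure D3:**
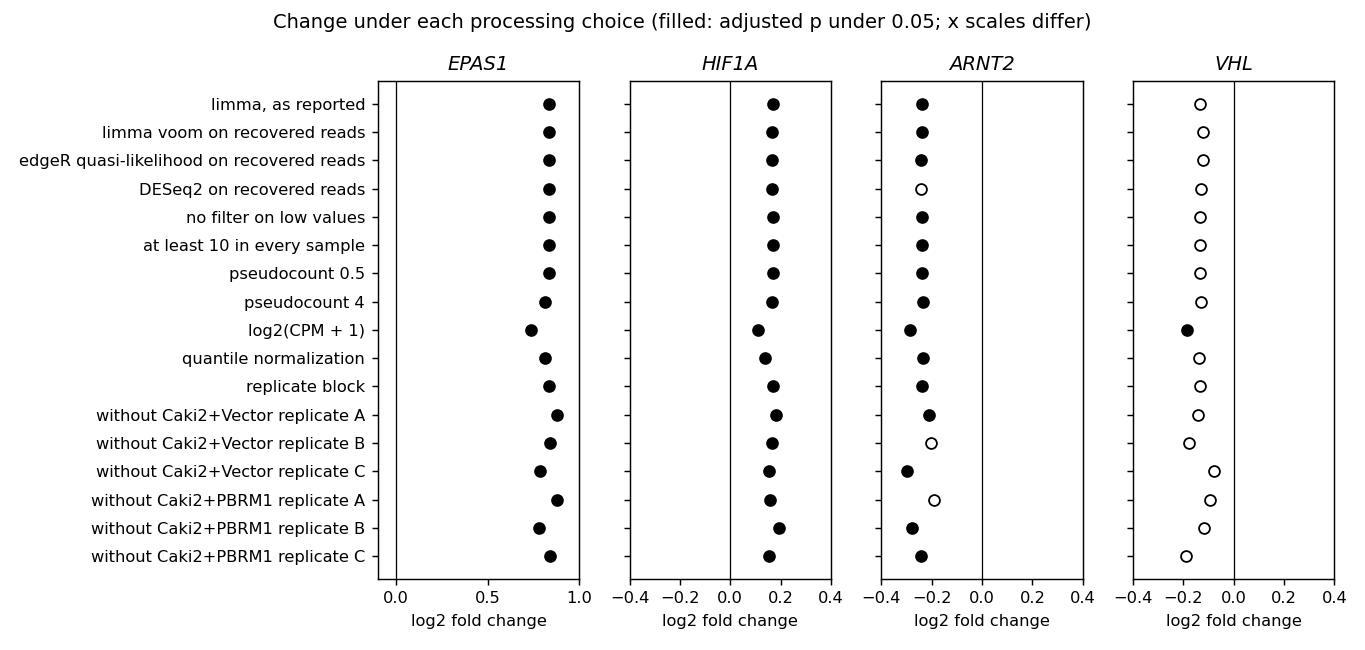
Log2 fold change (x axis, with a wider scale for EPAS1) of EPAS1, HIF1A, ARNT2 and VHL under each processing choice (rows), with filled points for an adjusted p under 0.05. EPAS1 stays between 0.736 and 0.880 and HIF1A between 0.112 and 0.193, always filled, while ARNT2 is open in 3 rows and VHL is filled in 1.

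Levels of different genes were compared as normalized count per kilobase of annotated exon. The lengths are from GENCODE, whereas the reads were counted on a UCSC annotation. How far the order depends on this difference was not tested. In Caki2+Vector the order was HIF1A (282.1 ± 5.17, SD, n = 3), EGLN1 (231 ± 15.0), ARNT (79.9 ± 1.30), VHL (78.7 ± 5.60), EGLN3 (69.7 ± 1.85), ARNT2 (53.7 ± 3.81), HIF1AN (49.5 ± 1.35) and EPAS1 (13.9 ± 0.910). The ranges of ARNT and VHL overlapped, as did those of ARNT2 and HIF1AN. In Caki2+PBRM1, EGLN1 (305 ± 20.2) came level with HIF1A (317 ± 9.60), their ranges overlapping, and EGLN3 (102.9 ± 4.23) took the third place, ahead of ARNT (84.6 ± 4.55), VHL (71.7 ± 5.01), HIF1AN (53.6 ± 1.66), ARNT2 (45.5 ± 2.80) and EPAS1 (24.9 ± 1.77). EPAS1 was the lowest of the 8 in both groups.

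The place of EGLN3 in Caki2+Vector depended on the length used. The exons of all its annotated transcripts add up to 7363 bp, but its canonical transcript is 2706 bp. Per kilobase of canonical transcript, EGLN3 took the third place in both groups, at 189.8 ± 5.03 (SD, n = 3) in Caki2+Vector and 280 ± 11.5 in Caki2+PBRM1. The order of HIF1A and EGLN1 at the top and EPAS1 at the bottom was the same with either length.

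**Figure D4:**
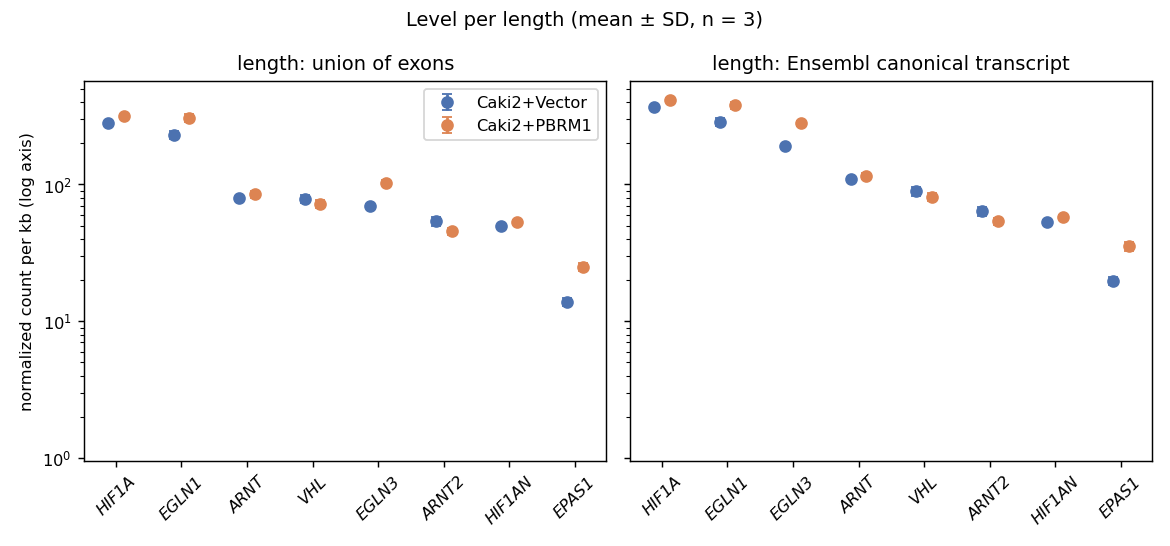
Normalized count per kilobase (log y axis) of 8 genes in Caki2+Vector and Caki2+PBRM1, as the mean of 3 samples with SD bars, divided by all annotated exon bases (left) or by the canonical transcript (right), in the order of the Caki2+Vector means. HIF1A and EGLN1 lead and EPAS1 is lowest in both panels, while EGLN3 moves from the fifth to the third place in Caki2+Vector.

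The rest of the pathway was described with lists of 90 genes, of which 81 passed the filter, 36 were upregulated and 8 were downregulated (limma, adjusted p under 0.05). The shares over all tested genes, 16.2% upregulated and 13.0% downregulated, are the background for this count and for each list. For each list up to 3 called genes with the largest change and the gene with the highest level are named, and a few others from small counts, chosen after their values were seen. Of 5 partners of VHL in its ubiquitin ligase, 3 were lower in Caki2+PBRM1 (13.0% of all tested genes) and none was higher, with a median log2 fold change of -0.139. They were NEDD8, the modifier that activates cullins (-0.291, adjusted p = 0.0149 from limma), TCEB2, which encodes elongin B (-0.176, adjusted p = 0.00360), and the scaffold CUL2 (-0.139, adjusted p = 0.0429), while TCEB1 and RBX1 had -0.080 and 0.007. Without Caki2+Vector A, without Caki2+PBRM1 A or with DESeq2, 1 of the 5 passed instead of 3. TCEB2, the most abundant of them, went from 1554.7 ± 54.2 to 1376.1 ± 47.3 normalized counts (SD, n = 3) and passed without Caki2+Vector A (adjusted p = 0.000272) and with DESeq2 (adjusted p = 0.00977). NEDD8 is a partner in the readthrough row NEDD8-MDP1, which was at 0 in all 6 samples. Whether the count of NEDD8 lost reads of shared exons was not tested.

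Of 15 other regulators of HIFα stability or activity, 2 were higher (1 without Caki2+PBRM1 C, 3 without Caki2+Vector C) and 3 lower, with a median of -0.005. The higher count was also 1 with DESeq2, with log2(CPM + 1) and at an adjusted p under 0.01. The lower count was 4 with log2(CPM + 1) or quantile normalization. SIAH2, a ubiquitin ligase that targets PHD3, went from 212.3 ± 16.6 to 298.1 ± 20.6 normalized counts (SD, n = 3), a log2 fold change of 0.489 (adjusted p = 4.13e-05 from limma). USP33, a deubiquitinase, had 0.209 (adjusted p = 0.0120), and was not called by DESeq2 (adjusted p = 0.0701). The chaperone HSP90AA1, which protects HIF1α from degradation independent of VHL, had -0.343 on the log2 scale (22341.3 ± 819.8 to 17603.8 ± 280.4, adjusted p = 3.08e-10). HSP90AB1 had -0.141 (adjusted p = 0.000283) and SENP1, which removes SUMO from HIF1α, -0.278 (adjusted p = 0.00132).

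Among 8 coactivators and CITED inhibitors of HIF, 7 were tested, with 4 higher, 1 lower and a median of 0.174. The lower count was 2 without Caki2+Vector B and with limma voom, edgeR, log2(CPM + 1), quantile normalization or the replicate block. CITED2 and CITED4 compete with HIFα for EP300 and CREBBP. CITED2 went from 907.7 ± 82.6 to 1458.2 ± 64.2 normalized counts (SD, n = 3), a log2 fold change of 0.686 (adjusted p = 2.6e-10 from limma), and CITED4, at a far lower level, from 36.5 ± 3.60 to 62.4 ± 10.2 (0.748, adjusted p = 0.00134). The coactivators EP300 (0.174) and NCOA1 (0.313) were also higher, whereas NCOA3 was lower, with -0.401 (2998.5 ± 50.9 to 2270.7 ± 21.4, adjusted p = 1.64e-09). CITED1 was below the filter.

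Of 28 widely used HIF target genes other than the members, 26 were tested, 21 were higher and none was lower, with a median of 0.334. These genes were listed with earlier results of these samples known, so the count is no independent evidence of direction. NDUFA4L2, a mitochondrial protein induced by HIF1α, went from 104.3 ± 29.1 to 392.7 ± 32.8 normalized counts (SD, n = 3), a log2 fold change of 1.942 (adjusted p = 9.94e-05 from limma). LOX, which crosslinks collagen, had 1.119 (687.2 ± 19.0 to 1493.0 ± 9.51), the glycolytic regulator PFKFB4 0.947 and the glycolytic enzyme ENO1, the most abundant, 0.139. CA12, SLC2A3, CCND1, TGFA and DDIT4 did not pass, with -0.032, 0.069, 0.082, -0.032 and 0.073 (adjusted p from limma 0.129 to 0.747). Without Caki2+Vector A, 20 were higher and 1 lower. With log2(CPM + 1) or quantile normalization, 19 were higher and 1 lower. The higher count was 18 with DESeq2, at an adjusted p under 0.01 or without Caki2+PBRM1 C, and 22 of 28 with no filter. CA9 and EPO were below the filter.

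**Figure D5:**
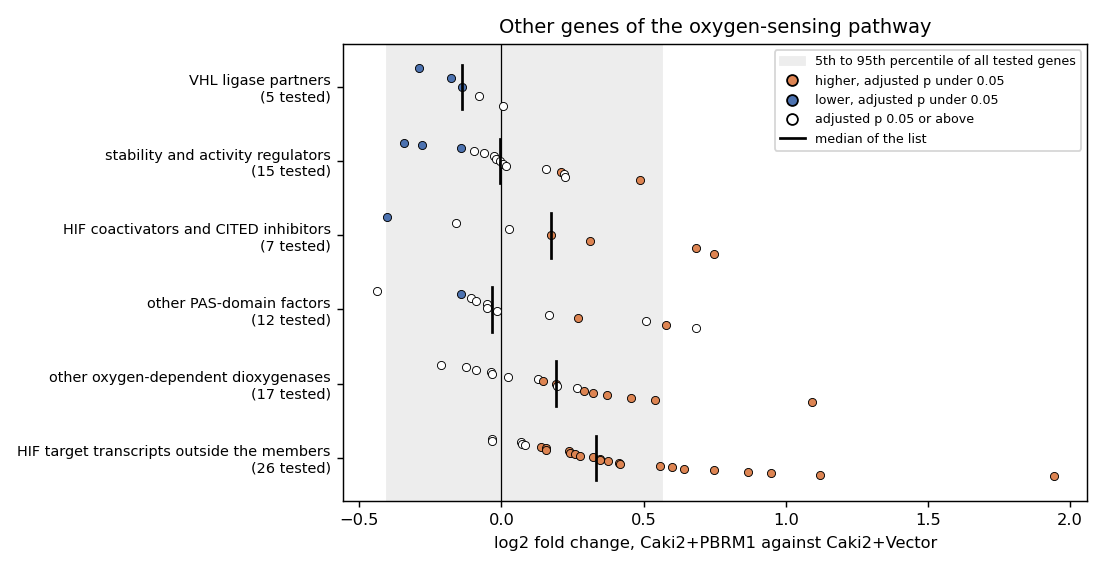
Log2 fold change (x axis, Caki2+PBRM1 against Caki2+Vector, 3 samples each) of the tested genes of 6 lists of the pathway (rows), colored by direction where limma's adjusted p was under 0.05, with the median of each list as a vertical bar. The median is 0.334 for HIF targets, 0.191 for dioxygenases, 0.174 for coactivators and CITED inhibitors and -0.139 for VHL ligase partners. The shaded band is the 5th to 95th percentile of all tested genes.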

How the data were processed

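RNA-Seq files of 6 Caki2 samples, 3 Caki2+Vector and 3 Caki2+PBRM1, were analysed, with groups and letters from the sample labels. According to the study, the authors trimmed adapters, removed poor-quality and rRNA reads, aligned to hg19 with STAR, counted 25369 genes of a UCSC annotation with htseq-count and normalized with DESeq2 (also in the submitters' processing notes, with versions not given in the sources used here). The deposited values are a signal per gene, reads divided by 1 size factor per sample (0.834 to 1.191), not by length. Whole reads were recovered for 100% of values within 0.01 reads, and numbered 7312955 to 10835355 per sample. The limit for a count of 0 covers counting error only. Replicates are called biological, but no source says whether they were separate clones.

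Log2(normalized count + 1) of the 13303 genes with at least 10 in at least 3 samples was compared with limma 3.58.1 (trend, robust) in R 4.3.3, Benjamini-Hochberg over all genes, adjusted p under 0.05. This called 3886 genes (29.2%). As alternatives, edgeR 4.0.16 on recovered reads called 4030 (30.3%) and DESeq2 1.42.0 called 2443 of 13836 (17.7%). Others were voom, no filter, at least 10 in every sample, pseudocounts of 0.5 and 4, log2(CPM + 1), quantile normalization, the replicate letter as a block, an adjusted p under 0.01 and each replicate left out. The canonical transcript length was added after seeing the data. Within-sample ratios were compared by exact two-sided permutation in scipy 1.17.1 (Python 3.11.15). The planned ratio of EGLN2 to EGLN1 was dropped because EGLN2 is listed at 0. In simulated data with 100 genes changed at each size, limma recovered 96% at a log2 fold change of 1 and 67% at 0.4, with 8 false calls among 171. Far fewer genes changed there than were called in these samples, and all simulated replicates had the same spread. Sizes below 0.4, such as those of HIF1A and ARNT2, were not simulated. These rates therefore hold for the simulated setting only.

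The 10 members and the lists were chosen with earlier results of these data known. All members were named, and of each list at most 3 called genes with the largest change, the most abundant gene and genes below the filter. Other list genes were named after their values were seen, behind a small count or for their place in the lists. Gene positions, exon lengths and overlaps come from GENCODE on GRCh37, promoters from RefSeq on GRCh38.p14. RT-PCR, hypoxia, protein and tumor data were not analysed here, and 1 marker gene is not reported here.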

Additional observations from a re-analysis of the deposited data

How the results depend on the processing

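Across 16 fits (other tests, filters, pseudocounts, scalings, the block and each replicate left out) the 4 upregulated members passed in every fit and no member changed direction. Leaving out each replicate in turn gave 0.354 to 0.452 for EGLN1, 0.534 to 0.592 for EGLN3, 0.779 to 0.880 for EPAS1 and 3.724 to 3.795 for PBRM1. Without Caki2+Vector A, the sample that stood apart, EPAS1 had 0.878, EGLN3 0.582, EGLN1 0.385, HIF1A 0.181 and ARNT2 -0.209 (adjusted p = 0.0193), and VHL -0.144 (adjusted p = 0.125). The number of downregulated members went from 1 to 0 with DESeq2 and at an adjusted p under 0.01, to 2 with log2(CPM + 1), and ranged from 0 to 1 with a replicate left out, ARNT2 and VHL being the genes concerned. Downregulated genes of the pathway lists went from 8 to 5 with DESeq2 and at an adjusted p under 0.01, to 14 with log2(CPM + 1), and from 5 to 10 with a replicate left out, while upregulated genes stayed between 27 and 37. For ARNT2 with DESeq2 and VHL with log2(CPM + 1), the cause was not tested.

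Over all tested genes together, no pairing by replicate letter was seen: the deviations of same-letter samples from their group means had correlations of 0.00587, -0.00767 and 0.0138. A letter effect on only some of the genes would not be seen in these values. With the replicate block 4107 genes passed, against 3886 without it, the same 4 members were higher and 1 lower, and 37 list genes were higher and 9 lower. The block raised the higher stability regulators from 2 to 3 and the lower coactivators from 1 to 2. Dividing by the longest or the canonical transcript in place of all exons gave EPAS1 5.09% or 5.08% of its pair with HIF1A in Caki2+Vector, and ARNT2 36.2% or 36.8% of its pair with ARNT in Caki2+Vector and 31.3% or 31.8% in Caki2+PBRM1. EGLN3 made up 23.2% of its pair with EGLN1 in Caki2+Vector and 25.2% in Caki2+PBRM1 by all exons, 38.6% and 41.3% by the longest transcript, and 39.9% and 42.5% by the canonical transcript. All 32 values of the 4 within-sample ratios under other pseudocounts or with a replicate left out lay on the same side. The depth left HIF3A untested, and 3 samples per group limit every exact test to p = 0.1.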

Other observations

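HIF1A, ARNT and EGLN1 each belong to a larger protein family, and lists of other genes, most of them from those families, were looked at in the same fit. The lists do not cover the whole families. NCOA1, NCOA2 and NCOA3 were counted with the coactivators, and P4HA1 and P4HA2 with the HIF targets. Of 14 listed factors with a PAS domain, the fold through which HIFα and ARNT pair, 12 were tested, with 2 higher, 1 lower and a median log2 fold change of -0.032. ARNTL, the clock partner of CLOCK, went from 136.1 ± 5.71 to 203.8 ± 3.04 normalized counts (SD, n = 3), a log2 fold change of 0.580 (adjusted p = 1.54e-05 from limma). AHR, the dioxin receptor that pairs with ARNT, had 0.268 (964.6 ± 20.7 to 1161.8 ± 10.9, adjusted p = 5.51e-05). ARNTL2, the most abundant of them, had -0.141 (1368.2 ± 46.2 to 1240.4 ± 9.02, adjusted p = 0.0186), and its call was lost with DESeq2 (adjusted p = 0.0607). With a replicate left out, the lower count was 2 without Caki2+Vector A, 1 without Caki2+Vector B and 0 without Caki2+Vector C or any of the Caki2+PBRM1 samples. NPAS3 and NPAS4 were below the filter.

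Of 17 other oxygen-dependent dioxygenases, most of them relatives of the EGLN enzymes and of HIF1AN, 8 were higher (16.2% of all tested genes were). None was lower in Caki2+PBRM1, and the median was 0.191. The 8 include ADO (0.191, adjusted p = 0.0143 from limma), which is not of that enzyme family, and KDM3A, which is also on the list of HIF targets. The histone H3K4 demethylase KDM5B went from 123.5 ± 7.21 to 264.2 ± 10.1 normalized counts (SD, n = 3), a log2 fold change of 1.092 (adjusted p = 1.24e-10 from limma). TET1, which oxidizes 5-methylcytosine, had 0.541 at a low level (27.6 ± 2.57 to 40.6 ± 2.83, adjusted p = 0.0343), KDM4B had 0.455 (adjusted p = 2.89e-06) and KDM5C, the most abundant, 0.146 (adjusted p = 0.0346). The count depended on the samples and the test. It was 3 with DESeq2, at an adjusted p under 0.01 or without Caki2+PBRM1 C, 4 without Caki2+PBRM1 B or Caki2+Vector B, 5 without Caki2+PBRM1 A or with quantile normalization, and 7 without Caki2+Vector C. With log2(CPM + 1), 4 were higher and 2 lower, and without Caki2+Vector A, 6 were higher and 2 lower. In the fit without Caki2+Vector A the 2 lower genes were P4HTM (adjusted p = 0.000446) and TET3 (adjusted p = 0.0125), chosen here after their values were seen.

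The antisense transcripts HIF1A-AS1 and HIF1A-AS2 had at most 4 reads and 1 read in any sample.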
